A study of Mus musculus with 23 samples.

Results

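Insulin and IGF-I act on muscle through a shared relay, and 10 genes of that relay were followed in the quadriceps of 23 mice: the ligand gene Igf1, the receptor genes Igf1r and Insr, the adaptor genes Irs1 and Irs2, the lipid kinase subunit gene Pik3r1, the kinase genes Akt1 and Akt2, and the IGF-binding protein genes Igfbp4 and Igfbp5. They were matched by symbol, by their place in the pathway, and are 10 of the 55573 genes in the table of counts. All 10 were among the 13049 genes that passed the study's filter on low values, and each passed it in all 4 groups. The lowest count of any of them in any mouse was 89, for Igf1.

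The mice were males and females of 8 to 10 weeks, C57Bl6 in the labels and C57BL/6J in the study's methods, with no engineered allele. Each carried a slow-release pellet under the skin of the neck for 14 days, either 50 mg of corticosterone with 50 mg of cholesterol or, as vehicle, 100 mg of cholesterol alone. All were fasted for 5 hours before the quadriceps was taken, so no group shows the fed state. There were 6 vehicle-treated females (F1, F3, F5, F7, F9 and F11), 5 corticosterone-treated females (F2, F4, F6, F8 and F10), 6 vehicle-treated males (M1 to M11, odd numbers) and 6 corticosterone-treated males (M2 to M12, even numbers).

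In muscle, insulin from the blood and IGF-I from the liver and from local cells bind the insulin and IGF-I receptors, which add phosphate to the IRS adaptors. These recruit PI3-kinase, a pair of a catalytic and a regulatory subunit, whose lipid product activates the AKT kinases, and AKT in turn drives glucose uptake and protein synthesis and restrains FOXO transcription factors. IGF-binding proteins hold IGFs outside the cell and release or withhold them. Glucocorticoids such as corticosterone, the main glucocorticoid of mice, are known to oppose insulin in this tissue and to waste muscle.

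Gene counts per mouse ranged from 20904150 to 21984477. The level of a gene in a mouse is its count scaled to library size (CPM), and changes are given as log2 fold change (log2FC) with its standard error (SE), from edgeR's quasi-likelihood test over all 13049 genes with a Benjamini-Hochberg adjusted p-value below 0.01 as the threshold. Fkbp5, a classic glucocorticoid target used to check the labels, ran from 12.5 to 58.8 CPM in vehicle-treated mice and from 149 to 422 CPM in corticosterone-treated mice, so no label went against it. Muscle fiber markers made up at least 67793 CPM in every mouse. The summed level of 12 hepatocyte markers was above 1000 CPM in F6, F10, M8, M9 and M12 and at most 458 CPM in the other mice. Calls that are lost without these 5 mice are given with that value. Leaving them out takes F6 and F10 from the 5 corticosterone-treated females. The share of all genes called then went from 26.3% to 18.6% in males and from 13.4% to 3.53% in females. It went from 23.3% to 2.22% between treated sexes and from 0.690% to 0.023% for the difference of the responses. In bulk tissue, fewer cells of a type and less RNA per cell cannot be told apart. Both sexes stand in the same set of counts, and the labels name no experiment. The study's methods do not say whether males and females were processed together. If they were processed apart, sex and processing could not be told apart.

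With corticosterone, 5 of the 10 genes passed the threshold in males. Pik3r1, Akt2 and Insr rose, where 13.2% of all genes tested were called higher, and Igfbp5 and Irs1 fell, where 13.1% were called lower. In females 2 passed it, Pik3r1 and Igfbp4, and both rose, where 7.40% of all genes were called higher and 6.0% lower. The unadjusted p-value of the response was under 0.05 for 7 of the 10 genes in males and for 7 in females. The median log2FC of the 10 genes was 0.14 in males and 0.15 in females, against -0.02 and 0.04 over all genes tested. Pik3r1 was the gene called in both sexes. The difference of the male and female responses was past the threshold for 0 of the 10 genes by edgeR, where 0.690% of all genes were called. Its unadjusted p-value was under 0.05 for 3 of them. DESeq2 called 0, where it called 6.98% of all genes, and limma-voom called 1, Igf1, where it called 5.31%.

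**Figure D1:**
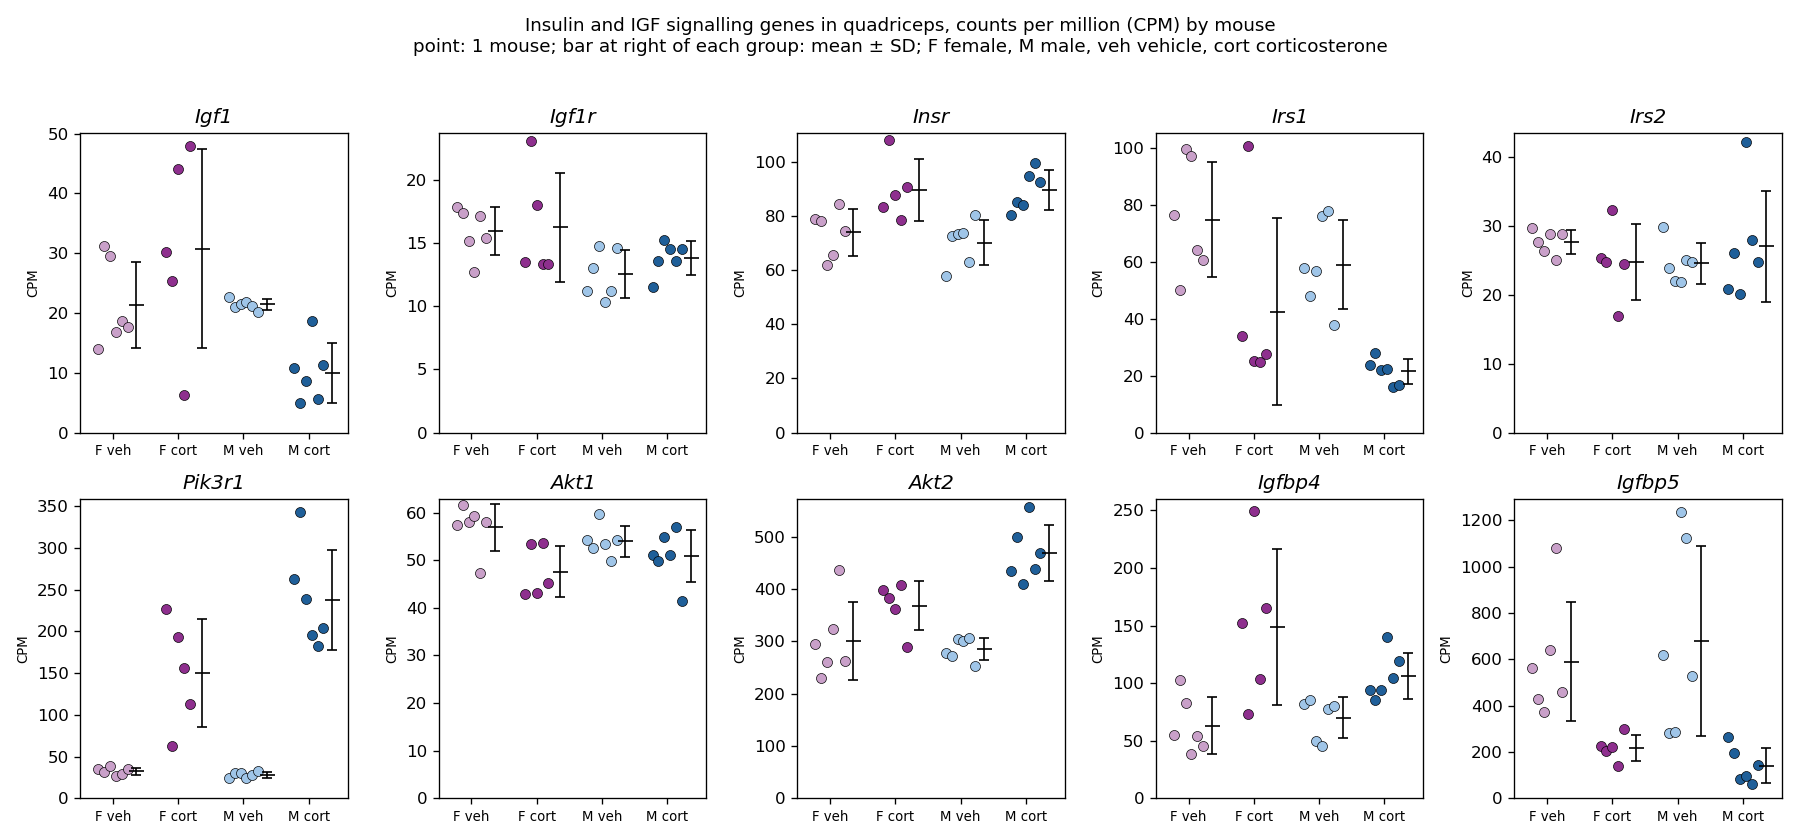
Level of each of the 10 genes in every mouse, in CPM on the vertical axis, by group on the horizontal axis. Points are mice and the bars to the right of each group are mean ± SD (n = 6, or 5 for corticosterone-treated females). Pik3r1 lies between 23.8 and 38.2 CPM in all vehicle-treated mice and between 63.2 and 343 CPM in all corticosterone-treated mice, and F4 stands apart in Irs1 at 100.8 CPM.

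Pik3r1 encodes the alpha regulatory subunit of PI3-kinase, which docks the enzyme to phosphorylated IRS proteins, and it had the largest log2FC of the 10 genes in both sexes. In males it ranged from 23.8 to 33.0 CPM with vehicle (median 29.3) and from 182 to 343 CPM with corticosterone (median 221). The groups did not overlap, the log2FC was 3.06 (SE 0.23), an 8.35-fold rise, and the adjusted p-value was 9.22e-09. In females it ranged from 26.6 to 38.2 CPM with vehicle (median 32.9), and with corticosterone its levels were 63.2 CPM in F4, 112 in F10, 156 in F8, 193 in F6 and 227 in F2. Every treated female lay above every vehicle-treated female, with F4 nearest to them. The log2FC in females was 2.21 (SE 0.23), a 4.63-fold rise, with an adjusted p-value of 2.20e-06. The male response was 0.85 larger on the log2 scale (SE 0.31, 95% interval 0.21 to 1.49), which did not pass the threshold (adjusted p = 0.0687). Fkbp5 was 207 CPM in F4, within the range of the other treated females. The cause of the low Pik3r1 level of that mouse was not tested.

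Pik3r1 lies on chromosome 13, on the minus strand, from 101680563 to 101768217 (GRCm38, GENCODE M21), with 7 annotated transcripts. RefSeq's GRCm38.p6 table gives promoter sequences of 300 bases for 2 of its start sites, one at the upstream end of the gene, chr13:101768168-101768467, and one inside it, chr13:101692581-101692880, both on the minus strand. They are shown because the transcripts from both count toward the gene, so the counts do not tell which start site carried the rise. Each runs 5′ to 3′ from 250 bases before to 50 bases after the start, in lower case throughout since none of the motifs searched was in it.
Pik3r1, outer start: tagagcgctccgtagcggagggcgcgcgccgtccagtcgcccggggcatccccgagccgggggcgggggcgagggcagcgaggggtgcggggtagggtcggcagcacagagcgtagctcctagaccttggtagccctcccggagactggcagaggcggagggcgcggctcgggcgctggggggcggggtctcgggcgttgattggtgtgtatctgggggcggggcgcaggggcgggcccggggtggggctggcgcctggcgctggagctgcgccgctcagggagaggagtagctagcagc
Pik3r1, inner start: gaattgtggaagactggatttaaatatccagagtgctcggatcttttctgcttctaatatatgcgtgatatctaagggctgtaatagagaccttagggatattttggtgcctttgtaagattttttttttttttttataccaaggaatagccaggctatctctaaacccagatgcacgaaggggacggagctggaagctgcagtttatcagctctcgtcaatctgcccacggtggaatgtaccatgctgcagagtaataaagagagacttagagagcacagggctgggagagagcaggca
Their GC content was 75.7% at the outer start and 43.7% at the inner one. The motifs searched on both strands were the palindromic glucocorticoid receptor site, the single hexamer AGAACA of which it is built, the FOXO core GTAAACA and the E-box CACGTG. Every palindrome contains the hexamer, so these 2 overlap. Of 14 promoters found for 9 of the 10 genes (Insr had no entry), 0 held the palindrome and 0 held the hexamer, against 0.00913% and 19.0% of all 32851 promoters in the table. The FOXO core was in 1 Akt1 promoter, against 3.65% of all promoters. These are matches of letters in 300 bases and say nothing of binding elsewhere.

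Irs1 and Irs2 encode the main adaptors between the receptors and PI3-kinase. Irs1 fell in males. It ranged from 37.7 to 78.1 CPM with vehicle (median 57.3) and from 16.1 to 28.1 CPM with corticosterone (median 22.2). The groups did not overlap, and the log2FC was -1.46 (SE 0.30, adjusted p = 0.000596). In females vehicle-treated mice ranged from 50.2 to 99.7 CPM (median 70.3), while treated mice had 24.7 CPM in F8, 25.2 in F6, 27.5 in F10, 34.1 in F2 and 100.8 in F4. So 4 of 5 treated females lay below every vehicle-treated female and F4 lay above them all. With F4 the log2FC was -0.82 (SE 0.31) and missed the threshold (adjusted p = 0.0544), and without F4 it was -1.42 and passed it (adjusted p = 8.27e-05). The male response was 0.64 lower than the female one on the log2 scale with all mice (a difference of -0.64, SE 0.42, adjusted p = 0.303) and -0.033 without F4. Between treated males and treated females the log2FC of Irs1 was -0.98 (adjusted p = 0.0159) with F4 and -0.37 (adjusted p = 0.162) without F4, and it passed without F8 (-1.12, adjusted p = 0.00677).

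Irs2 did not pass in either sex. It ran from 21.8 to 29.8 CPM in vehicle-treated males and from 20.2 to 42.2 CPM in treated males, M8 being the highest. The log2FC was 0.14 (SE 0.15, 95% interval -0.17 to 0.45, adjusted p = 0.485) with M8 and -0.035 without M8. In females it ran from 25.0 to 29.6 CPM with vehicle and from 16.9 to 32.3 CPM with corticosterone, with a log2FC of -0.16 (SE 0.16, 95% interval -0.49 to 0.16, adjusted p = 0.477). Both adaptor genes have exons that overlap a gene on the other strand, Gm9747 over 2822 bases of Irs1 and 9530052E02Rik over 162 bases of Irs2, and reads were counted by strand.

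Irs1 and Irs2 were the 2 genes of the list whose promoters held the E-box CACGTG, 1 match each, against 7.15% of all promoters. The match lies 115 bases before the start of Irs1 and 44 bases before the start of Irs2. The windows below are from RefSeq's GRCm38.p6 table, both on the minus strand, chr1:82291511-82291591 for Irs1 and chr8:11008930-11009010 for Irs2, and are shown for comparison of the adaptor genes, with the E-box in capitals.
Irs1: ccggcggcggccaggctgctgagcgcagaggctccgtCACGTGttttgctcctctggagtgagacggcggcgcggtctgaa
Irs2: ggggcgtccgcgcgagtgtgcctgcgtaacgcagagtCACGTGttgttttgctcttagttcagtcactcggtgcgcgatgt
The bases on both sides of the E-box are gtCACGTGtt in both genes. The match is a description, and the data do not bear on what binds there.

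Igf1 encodes IGF-I, the ligand of the IGF-I receptor. In males it ranged from 20.2 to 22.7 CPM with vehicle (median 21.4) and from 4.92 to 18.6 CPM with corticosterone (median 9.67). Every treated male lay below every vehicle-treated male, M8 being the nearest, yet the log2FC of -1.10 (SE 0.35) missed the threshold (adjusted p = 0.0157). It passed without M8, at -1.38 (adjusted p = 0.00445), and also without the female mouse F8, which changes only the shared estimate of spread (adjusted p = 0.00208). DESeq2 (adjusted p = 0.00463), limma-voom (-1.31, adjusted p = 0.000784) and males fitted alone (adjusted p = 0.00388) called it too. It passed in 9 of 34 alternatives in all, and in 2 of the 23 fits that left out 1 mouse. In females Igf1 ranged from 14.1 to 31.2 CPM with vehicle (median 18.1), and with corticosterone its levels were 6.20 CPM in F8, 25.3 in F4, 30.1 in F2, 44.1 in F6 and 48.0 in F10. Treated females thus lay on both sides of the vehicle-treated ones, F8 below them all and F6 and F10 above them all. The log2FC in females was 0.53 (SE 0.36, 95% interval -0.21 to 1.27, adjusted p = 0.285).

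The male response of Igf1 was lower than the female one by a difference of -1.63 on the log2 scale (SE 0.50, 95% interval -2.66 to -0.60). Its adjusted p-value of 0.0381 missed the threshold. Without F8 this difference was -1.89 (adjusted p = 0.00311), and it passed in 1 of the 23 fits that left out 1 mouse. Among corticosterone-treated mice Igf1 was lower in males, at 9.95 ± 4.95 CPM (SD, n = 6) against 30.7 ± 16.6 CPM in females (SD, n = 5). The log2FC of males against females was -1.62 (SE 0.36, adjusted p = 0.00172), the 1 call among the 10 genes in that comparison, where 23.3% of all genes were called. Among vehicle-treated mice the 2 sexes had 21.4 ± 0.850 CPM (males) and 21.3 ± 7.19 CPM (females).

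Over the 23 mice Igf1 correlated with markers of other cells, with r = 0.64 for the adipocyte score and 0.76 for the fibroblast score. After taking out group means, these were 0.78 and 0.73. The group levels did not always go the same way. The 9 adipocyte markers, all of which passed the filter and none of which was at 0, summed to 354 to 2183 CPM in vehicle-treated females, 558 to 5839 CPM in treated females, 218 to 925 CPM in vehicle-treated males and 787 to 1225 CPM in treated males. Of these 9, 1 was called higher in males and 2 in females, where 13.2% and 7.40% of all genes were. Their median log2FC was 0.21 in males and 2.30 in females. In males the median of the sum was 698 CPM with vehicle and 887 CPM with corticosterone, while single markers differed. In males Adipoq ran from 4.45 to 89.2 CPM with vehicle and from 13.3 to 68.6 CPM with corticosterone. Cfd ran from 18.2 to 281 CPM and from 9.77 to 79.0 CPM. Among treated females F8, lowest in Igf1, was lowest in adipocyte markers too, and F6 was highest in them. F2 had 3047 CPM of them, more than F10, with Igf1 within the vehicle range. Igf1 also correlated with the macrophage score (r = 0.70, and 0.60 after taking out group means). The 8 fibroblast markers fell in males for 6 of 8 genes and in females for 2 of 8, where 13.1% and 6.0% of all genes were called lower. They summed to 1040 to 1610 CPM in vehicle-treated males and 375 to 539 CPM in treated males, groups that did not overlap, and to 938 to 1979 CPM and 589 to 1257 CPM in females. Holding the adipocyte score constant, Igf1 had a log2FC of -1.23 in males (adjusted p = 0.000494) and -0.26 in females (adjusted p = 0.612), and treated males against treated females gave -0.94 (adjusted p = 0.0180). Holding the fibroblast score constant, the male log2FC turned to 1.49 (adjusted p = 0.175). But that score itself separates the male groups and left 0 of the 10 genes called in males, where 0.276% of all genes were. In females the same fit gave 1.11 (adjusted p = 0.00980), past the threshold. Without the 5 mice with hepatocyte markers, Igf1 had a log2FC of -1.51 in males (adjusted p = 0.00439), -0.07 in females (adjusted p = 0.925) and -1.43 between treated males and females (adjusted p = 0.0316). The part of these cells in the Igf1 levels was otherwise not tested.

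**Figure D2:**
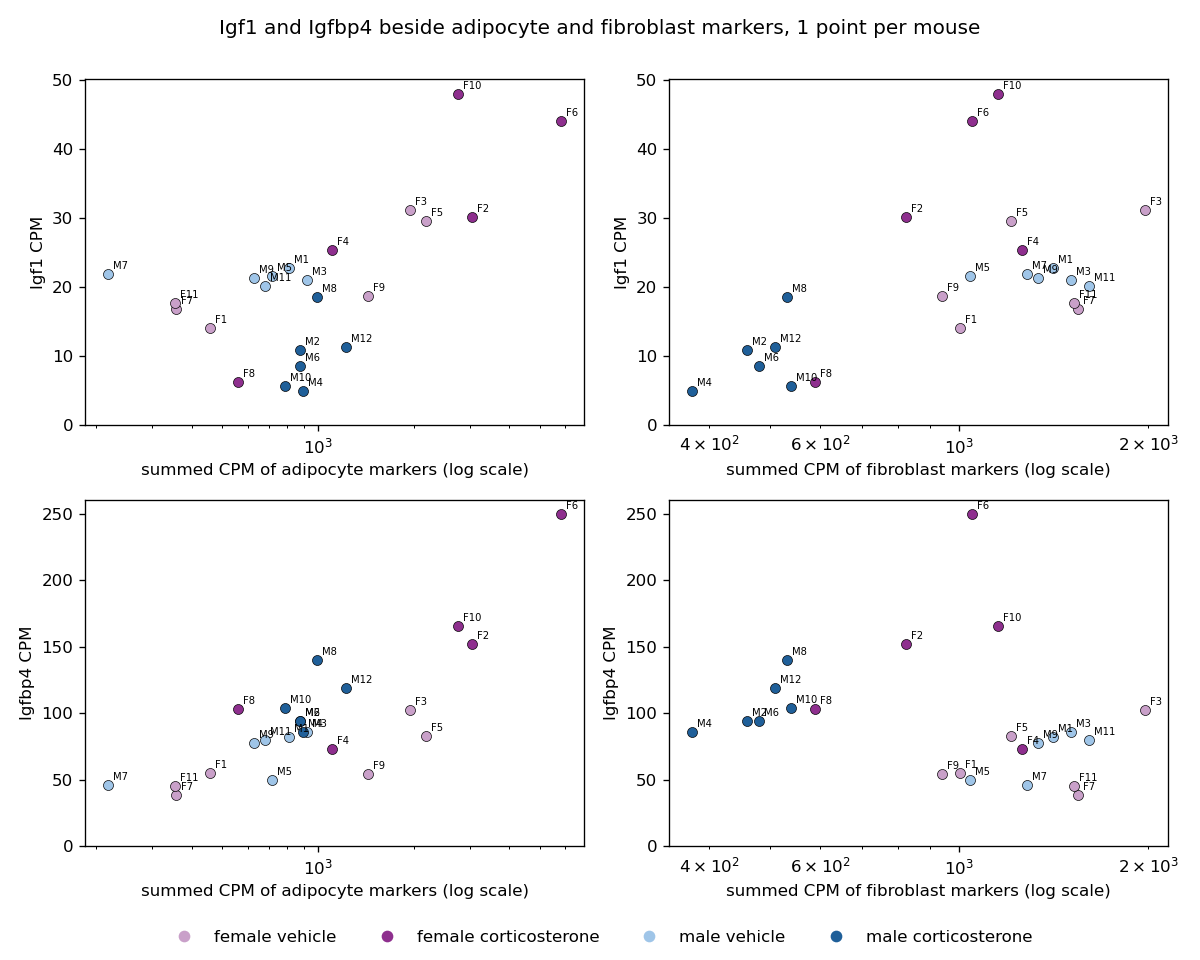
Level of Igf1 (top) and Igfbp4 (bottom) in CPM against the summed CPM of adipocyte markers (left, log scale) and fibroblast markers (right, log scale), 1 labelled point per mouse, colored by group. F6 and F10 are the highest in Igf1 and lie at 2756 CPM or more of adipocyte markers, and F8 is low in both. F2 lies at 3047 CPM of adipocyte markers with Igf1 at 30.1 CPM. The treated males lie at or below 539 CPM of fibroblast markers, apart from the vehicle-treated males.

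The receptor genes moved little. Insr encodes the insulin receptor. It ranged from 58.0 to 80.6 CPM in vehicle-treated males and from 80.4 to 99.7 CPM in treated males, and the groups overlapped only through M11 and M2. The rise was small, a log2FC of 0.35 (SE 0.09, adjusted p = 0.00508), and it missed the threshold when any 1 of M1, M8, M9 or M10 was left out (adjusted p between 0.0125 and 0.0152) and without the 5 mice with hepatocyte markers (0.30, adjusted p = 0.0544). In females Insr ranged from 62.0 to 84.6 CPM with vehicle and from 78.4 to 108 CPM with corticosterone, a log2FC of 0.28 (SE 0.10, adjusted p = 0.040). The difference of the responses was 0.07 (95% interval -0.21 to 0.36). Igf1r, which encodes the IGF-I receptor, had the lowest mean counts per length of the list in every group. With corticosterone its range overlapped that of Igf1 in both sexes. Its log2FC was 0.14 in males (95% interval -0.13 to 0.42, adjusted p = 0.405) and 0.03 in females (95% interval -0.26 to 0.31, adjusted p = 0.905). F4 had the highest Igf1r level of all mice, 23.1 CPM, and the female log2FC was -0.13 without F4.

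Akt1 and Akt2 encode the kinases activated downstream of PI3-kinase, and Akt2 is the form known for insulin-stimulated glucose uptake. Akt2 rose in males. It ranged from 254 to 305 CPM with vehicle (median 289) and from 409 to 556 CPM with corticosterone (median 454). These groups did not overlap, and the log2FC was 0.71 (SE 0.13, adjusted p = 0.000135). With the fibroblast score held constant, which separates the male groups, it was 0.050 (adjusted p = 0.923), against 2.44 for Pik3r1 (adjusted p = 0.0241), -0.75 for Irs1 (adjusted p = 0.526) and -2.38 for Igfbp5 (adjusted p = 0.130). The part of these cells in the levels was otherwise not tested. In females Akt2 ranged from 229 to 436 CPM with vehicle (median 278), F9 being the highest, and treated mice had 289.7 CPM in F10, 361 in F6, 382 in F4, 398 in F2 and 408 in F8. All treated females lay within the vehicle range. The log2FC was 0.29 (SE 0.13, adjusted p = 0.103) with F9 and 0.43 (adjusted p = 0.00781) without F9. The difference of the responses was 0.42 (95% interval 0.05 to 0.80, adjusted p = 0.116), and treated males had more Akt2 than treated females in every mouse, with a log2FC of 0.35 that missed the threshold (adjusted p = 0.0409).

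Akt1 behaved otherwise. It ran from 49.9 to 59.8 CPM in vehicle-treated males and from 41.4 to 56.9 CPM in treated males, a log2FC of -0.09 (95% interval -0.25 to 0.08, adjusted p = 0.413). In females it ran from 47.3 to 61.7 CPM with vehicle and from 42.8 to 53.6 CPM with corticosterone, a log2FC of -0.26 (SE 0.08, adjusted p = 0.0279). The female groups overlapped, F9 being the lowest vehicle-treated mouse at 47.3 CPM.

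Igfbp5 encodes an IGF-binding protein and had the highest level per length of the 10 genes in vehicle-treated muscle. It fell in males. It ranged from 282 to 1235 CPM with vehicle (median 574) and from 62.0 to 263 CPM with corticosterone (median 122), with no overlap, and the log2FC was -2.27 (SE 0.40, adjusted p = 0.000135). In females it ranged from 373 to 1079 CPM with vehicle (median 510), and with corticosterone its levels were 139.5 CPM in F8, 203 in F4, 222 in F6, 224.5 in F2 and 298 in F10. No treated female reached the vehicle range, yet the log2FC of -1.44 (SE 0.41) missed the threshold (adjusted p = 0.0137) in a fit that shares 1 estimate of spread per gene. It passed with DESeq2 (adjusted p = 0.00130) and with each sex fitted alone (adjusted p = 0.00752). The male response was lower by a difference of -0.83 (95% interval -1.97 to 0.32, adjusted p = 0.307).

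Igfbp5 lies on chromosome 1, on the minus strand, from 72857932 to 72874884 (GRCm38, GENCODE M21), and its promoter, chr1:72874816-72875115 of RefSeq's GRCm38.p6 table on the minus strand, is shown as that of the gene with the largest fall. It runs 5′ to 3′ and held none of the 4 motifs.
Igfbp5: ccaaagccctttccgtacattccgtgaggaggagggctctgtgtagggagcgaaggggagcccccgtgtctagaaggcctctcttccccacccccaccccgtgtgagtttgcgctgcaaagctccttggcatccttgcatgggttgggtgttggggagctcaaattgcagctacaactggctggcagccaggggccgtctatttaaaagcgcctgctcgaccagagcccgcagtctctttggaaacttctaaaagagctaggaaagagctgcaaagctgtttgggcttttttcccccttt

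Igfbp4 encodes a binding protein that mainly withholds IGFs. It rose in females. It ranged from 38.2 to 102 CPM with vehicle (median 54.3), and with corticosterone its levels were 73.3 CPM in F4, 103 in F8, 152 in F2, 165 in F10 and 249.6 in F6. F4 was the treated female within the vehicle range. The log2FC was 1.24 (SE 0.27, adjusted p = 0.00234). Igfbp4 moved with the adipocyte markers, which F6 had the most of. Its log2FC was 0.96 (adjusted p = 0.0148) without F6, 0.79 (adjusted p = 0.0123) with the adipocyte score held constant, and 0.78 (adjusted p = 0.0894) without the 5 mice with hepatocyte markers. In males Igfbp4 ranged from 45.7 to 85.7 CPM with vehicle and from 85.6 to 140 CPM with corticosterone, groups that met at M3 and M4. The male log2FC was 0.60 (SE 0.26, adjusted p = 0.0716), or 0.61 (adjusted p = 0.00930) with the adipocyte score held constant, and the difference of the responses was -0.64 (95% interval -1.42 to 0.14, adjusted p = 0.244).

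**Figure D3:**
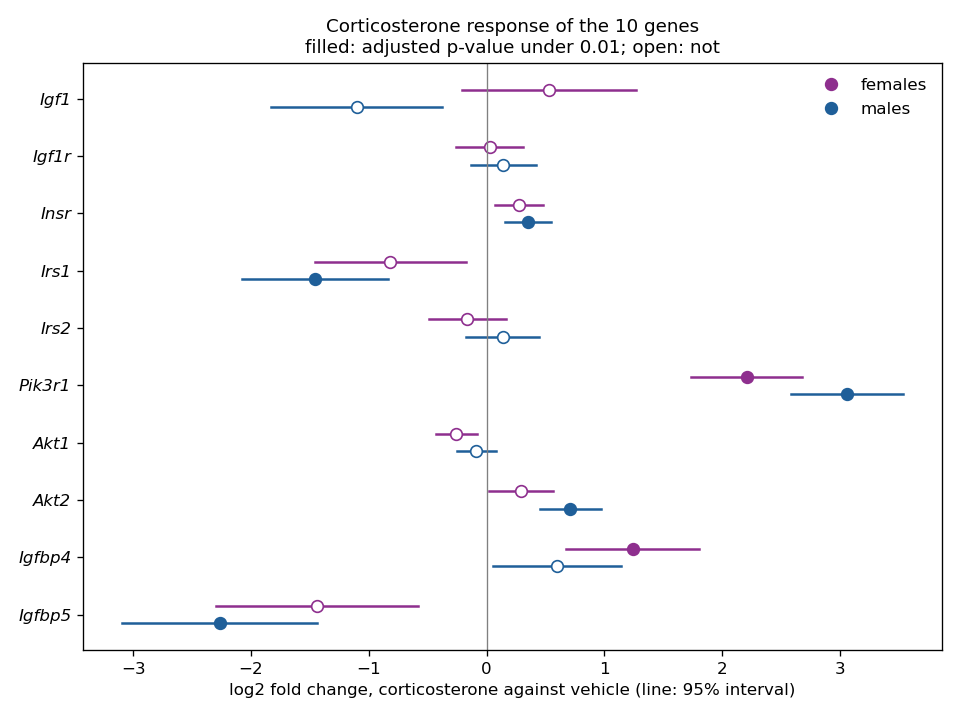
Log2 fold change of corticosterone against vehicle for each of the 10 genes in females (purple) and males (blue), with 95% intervals as lines and filled points where the adjusted p-value was below 0.01. Pik3r1 lies far to the right in both sexes, at 3.06 in males and 2.21 in females, while Igf1 lies at -1.10 in males and 0.53 in females, with intervals that do not overlap.

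Counting mice rather than fitting a model, treated and vehicle-treated groups did not overlap for 5 of the 10 genes in males (Igf1, Irs1, Pik3r1, Akt2 and Igfbp5), where 21.9% of all genes tested did not overlap. In females they did not overlap for 2 (Pik3r1 and Igfbp5), where the figure was 7.72%. Between vehicle-treated males and females 0 of the 10 genes passed edgeR's threshold, where 0.958% of all genes did. In that comparison 1 had an unadjusted p-value under 0.05, Igf1r, at 12.5 ± 1.90 CPM in males and 15.9 ± 1.91 CPM in females (SD, n = 6 each), a log2FC of -0.35 (adjusted p = 0.205). DESeq2 and limma-voom also called 0 of the 10, where they called 2.13% and 1.43% of all genes.

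Per kilobase of exon the group means of the genes spanned over 2 orders of magnitude with vehicle and less with corticosterone. The order of levels changed with treatment. In vehicle-treated males Igfbp5 was first at 113 CPM per kb, ahead of Akt2 at 40.0, Igfbp4 at 15.9 and Akt1 at 13.2, and Igf1r was last at 0.745. Igfbp4 and Akt1 overlapped in range, as did Irs1 with Insr and Insr with Irs2, while the other neighbors did not. Vehicle-treated females had the same order from first to last. In corticosterone-treated males Akt2 was first at 65.6 CPM per kb, above all mice of the next gene, and Igfbp4, Pik3r1 and Igfbp5 followed with 24.0, 23.6 and 23.5 and overlapping ranges. Pik3r1 had moved from rank 8 to rank 3 there. In corticosterone-treated females the ranges of Akt2, Igfbp5, Igfbp4, Pik3r1 and Akt1 overlapped from neighbor to neighbor, with means of 51.6, 36.2, 33.7, 14.9 and 11.6 CPM per kb.

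**Figure D4:**
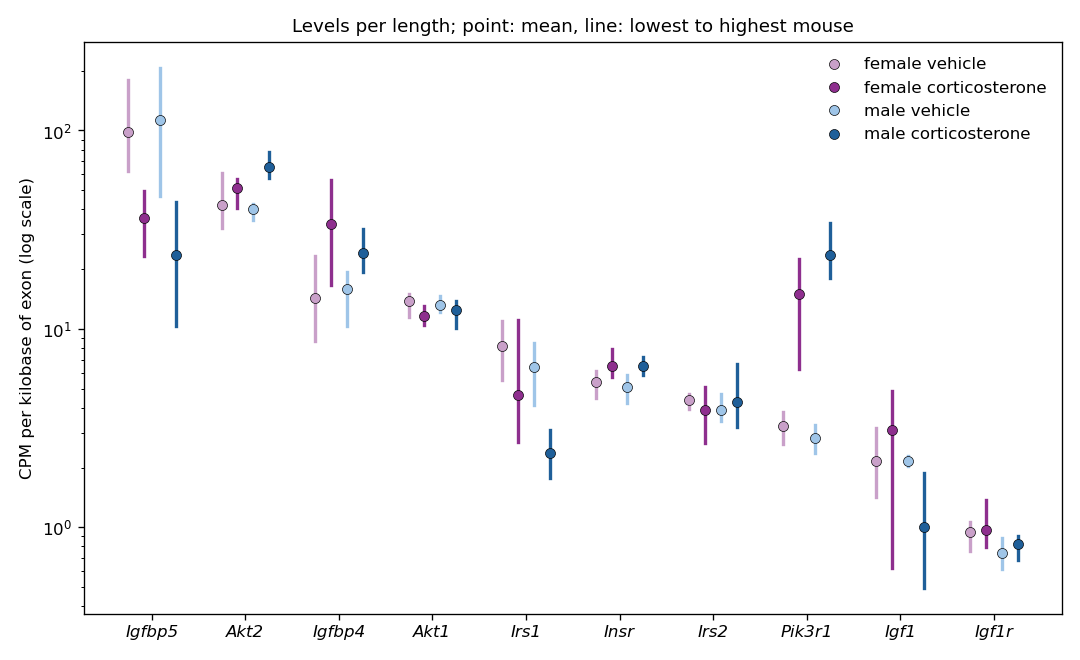
Levels per length of the 10 genes in CPM per kilobase of exon on a log axis, ordered by the mean in vehicle-treated males, with points for group means and lines from the lowest to the highest mouse. Pik3r1 rises from 2.82 to 23.6 in males and Igfbp5 drops from 113 to 23.5, while Igf1r keeps the lowest mean.

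The genes whose levels over the 23 mice were most like each of the 10 were found by Pearson's r of log2 CPM. These values describe the libraries, which share the treatment, so r within groups, after taking out group means, is given too. Pik3r1 was closest to Glra3 (r = 0.98, within groups 0.75), Foxo1 (0.98 and 0.82) and Hectd2os (0.96 and 0.69). Foxo1 encodes one of the FOXO factors that AKT restrains. Igfbp4 was closest to Papss2 (0.95, within groups 0.90), Dpep1 (0.92 and 0.85) and Abhd15 (0.91 and 0.85). Akt2 was closest to Osgep (0.94 and 0.82), Irs1 to Actc1 (0.92 and 0.77), Igf1 to C1s1 (0.92 and 0.84) and Igfbp5 to Vasp (0.91 and 0.70). Lower values were found for Insr with Tacc2 (0.84 and 0.65), Akt1 with Fam234a (0.82 and 0.74), Igf1r with Asxl1 (0.79 and 0.78) and Irs2 with Pusl1 (0.74 and 0.72). None of the 10 genes was among the 3 nearest genes of another.

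Around the 10 genes, 58 other genes of the pathway were listed in 4 groups by role, and 47 of them passed the filter. In males 12 of the 47 rose and 7 fell, where 13.2% of all genes tested were called higher and 13.1% lower, and in females 5 rose and 5 fell, where 7.40% were called higher and 6.0% lower. The median log2FC of the 47 was 0.03 in males and 0.01 in females. Between vehicle-treated males and females 3 were called, where 0.958% of all genes were, and between treated males and females 15, where 23.3% were.

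Among ligands, receptors and binding proteins, 6 of 15 were tested. Igfbp3, the main carrier of IGFs in blood, rose in both sexes and did not overlap with vehicle in either. It ranged from 15.5 to 26.2 CPM in vehicle-treated males and from 48.6 to 101 CPM in treated males, a log2FC of 1.65 (SE 0.21, adjusted p = 2.82e-06). In females it went from 15.4 to 22.3 CPM up to 33.5 to 86.4 CPM, a log2FC of 1.67 (SE 0.21, adjusted p = 1.89e-05). Igfbp6 and Igfbp7, further binding proteins, fell in males, with log2FC of -0.72 (adjusted p = 0.00590) and -0.87 (adjusted p = 0.00114), beside the male fall in fibroblast markers (Igfbp6 had an adjusted p-value of 0.0188 without the 5 mice with hepatocyte markers), and had 0.25 and 0.13 in females, where neither passed. Stc2, which encodes a secreted inhibitor of the protease that frees IGFs from binding proteins, rose in males from 1.38 to 3.10 CPM up to 13.1 to 26.1 CPM. Its log2FC was 2.97 (SE 0.32, adjusted p = 5.45e-07) in males and 0.37 (SE 0.31, adjusted p = 0.398) in females, where it was 4.20 to 9.41 CPM with vehicle and 3.998 to 19.1 CPM with corticosterone. The difference was 2.60 (SE 0.44, adjusted p = 0.00607). Vehicle-treated males started lower than vehicle-treated females (log2FC -1.78, adjusted p = 0.00180). With corticosterone, F2, F4, F8 and F10 lay below every treated male. The ranges of treated males and treated females overlapped only through F6, at 19.1 CPM.

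Among adaptors and PI3-kinase subunits, 15 of 16 were tested, and 3 were called in males and 4 in females. Over all genes tested, 26.3% were called in males and 13.4% in females. Pik3cd, a catalytic subunit best known from leukocytes, fell in both sexes with no overlap. It went from 16.9 to 22.7 CPM down to 4.70 to 8.71 CPM in males (log2FC -1.80, SE 0.15, adjusted p = 3.18e-08) and from 14.5 to 18.4 CPM down to 6.38 to 10.8 CPM in females (log2FC -0.997, SE 0.16, adjusted p = 0.000137). The other regulatory subunit genes did not go with Pik3r1, as Pik3r2 had a log2FC of 0.11 in males and -0.20 in females and Pik3r3 had -0.34 and 0.21, none past the threshold. Pik3ca, the main catalytic subunit gene here at 57.9 CPM in vehicle-treated males, had -0.04 and -0.36. Pik3cb rose in females (log2FC 0.68, adjusted p = 0.00698), Grb2 fell in both sexes (-0.26 and -0.31, adjusted p = 0.00180 and 0.00113), Gab1 rose in males (0.47, adjusted p = 0.00166) and Sh2b2 rose in females (1.82, adjusted p = 0.00387). Pik3cb and Sh2b2 were highest in F6, the mouse with most adipocyte markers, and neither passed with that mouse left out (adjusted p = 0.0457 and 0.0272). Without the 5 mice with hepatocyte markers, the calls of Grb2 (adjusted p = 0.0301 in males and 0.0216 in females), Gab1 (0.0131), Pik3cb (0.103) and Sh2b2 (0.116) were lost. That fit called 18.6% of all genes in males and 3.53% in females.

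Among brakes on the receptor and on PI3-kinase, 16 of 17 were tested, and 5 were called in each sex, where 26.3% of all genes tested were called in males and 13.4% in females. Grb14, an inhibitor of the insulin receptor, fell in males from 9.87 to 40.2 CPM down to 1.94 to 7.35 CPM (log2FC -2.25, SE 0.33, adjusted p = 1.59e-05) and had -0.68 in females (adjusted p = 0.130). The phosphatase gene Ptpn1, whose product removes phosphate from the receptor, rose in males (0.40, adjusted p = 0.000281), as did Inpp5k (0.42, adjusted p = 5.97e-06) and Trib1 (0.75, adjusted p = 0.000683). Inppl1, a lipid phosphatase gene, fell in both sexes (-0.61 and -0.49, adjusted p = 0.000523 and 0.00860). In females Grb10 fell (-0.57, adjusted p = 0.00170), Socs2 fell (-1.51, adjusted p = 0.00597), and Ptprf (1.57, adjusted p = 0.00231) and Trib3 (1.12, adjusted p = 0.00444) rose. Trib3 was highest in F6 too, and had 0.89 without F6 (adjusted p = 0.0257) and 0.74 with the adipocyte score held constant (adjusted p = 0.0623). Socs2 had -1.16 without F5 (adjusted p = 0.0184). Of 23 fits that left out 1 mouse, the female calls held in 17 for Socs2, 17 for Trib3 and 8 for Inppl1, and in all for Grb10 and Ptprf. Without the 5 mice with hepatocyte markers, the female calls of Grb10 (adjusted p = 0.0202), Ptprf (0.0250), Inppl1 (0.0702), Socs2 (0.0843) and Trib3 (0.156) were lost. That fit called 3.53% of all genes in females.

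Among AKT substrates and insulin outputs, 10 of 10 were tested, and edgeR called 7 in males and 0 in females. Over all genes tested it called 26.3% in males and 13.4% in females. In females 3 had an unadjusted p-value under 0.05. DESeq2 called 1 and limma-voom called 1 in females, where they called 18.6% and 18.8% of all genes. Tbc1d4, the AKT substrate that gates glucose transporter movement, rose in males from 32.0 to 56.3 CPM up to 103 to 160 CPM (log2FC 1.53, SE 0.15, adjusted p = 1.49e-07). In females it was 46.8 to 86.3 CPM with vehicle and 87.0 to 105 CPM with corticosterone, every treated mouse above every vehicle-treated one, and the log2FC of 0.47 (SE 0.15) missed the threshold (adjusted p = 0.0262). The difference of the responses was 1.06 (SE 0.21, adjusted p = 0.00952), and it missed the threshold (adjusted p = 0.0865) without the 5 mice with hepatocyte markers. Eif4ebp1, a repressor of translation that insulin switches off through phosphorylation, rose in males (1.48, SE 0.23, adjusted p = 4.42e-05) and had 0.82 in females (adjusted p = 0.0155). Gsk3b (0.70), Tsc1 (0.42), Tsc2 (0.52) and Akt1s1 (0.29) rose in males, and Pfkfb2 (-0.59) fell, with adjusted p-values from 2.41e-05 to 0.00978. The male calls of this list held in all 23 fits that left out 1 mouse for Tbc1d4, Eif4ebp1, Gsk3b, Tsc1 and Tsc2, in 19 for Pfkfb2 and in 7 for Akt1s1. The last 2 were also lost without the 5 mice with hepatocyte markers (adjusted p = 0.0178 and 0.0161).

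**Figure D5:**
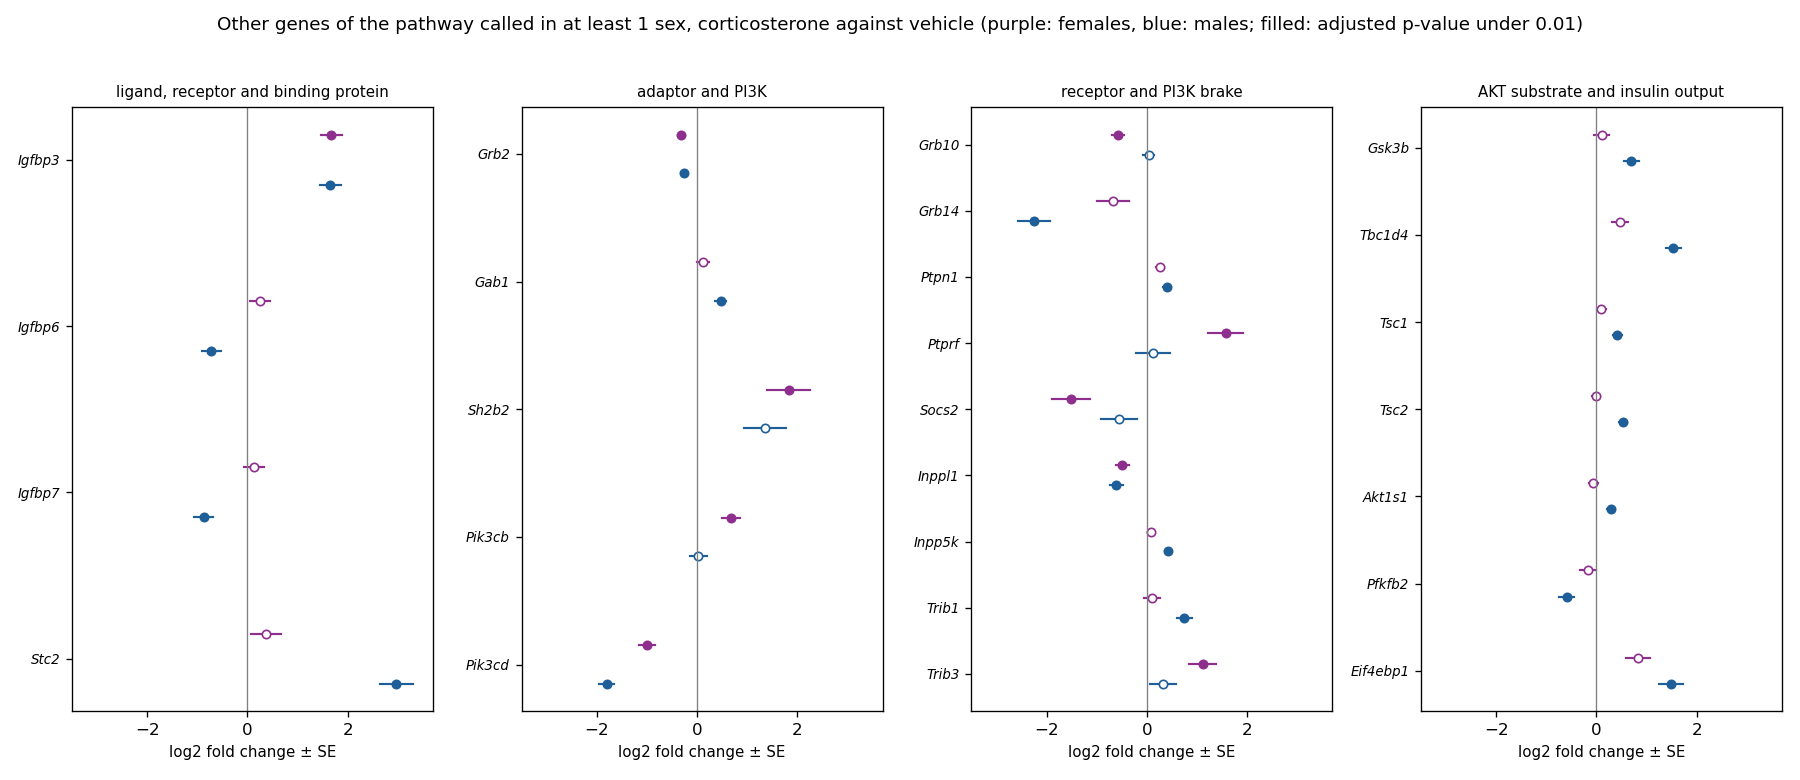
Log2 fold change ± SE of corticosterone against vehicle for the 25 genes of 4 lists, of 47 tested, that were called in at least 1 sex, in females (purple) and males (blue), with filled points where the adjusted p-value was below 0.01. Igfbp3 lies near 1.65 in both sexes, Stc2 at 2.97 in males and 0.37 in females, and Pik3cd lies left of 0 in both.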

How the data were processed

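Quadriceps RNA of 23 mice was sequenced as stranded, poly(A)-selected paired-end libraries. The authors aligned reads to mm10 with STAR 2.7.3a, counted uniquely mapped pairs by strand with HTSeq 0.12.4 and Ensembl 97, and deposited raw counts per gene without normalization. Summary entries for unassigned reads (10.7% to 15.3% of pairs) were left out. No replicates agreed within sampling noise. Groups came from the labels.

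The tests ran in edgeR 4.0.16 under R 4.3.3 (quasi-likelihood test, TMM, 1 model with 4 group means), after the study's filter (more than 20 normalized counts in 4 or more mice of any group). P-values were adjusted over 13049 genes with a threshold of 0.01. The fit was tested on simulated data. DESeq2 1.42.0 and limma 3.58.1 (voom) were alternatives. CPM use TMM library sizes, and log2 CPM a prior count of 1. Levels per length use merged exons of GENCODE M21, which matched 55480 of 55573 gene IDs.

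The genes named are the 10 genes, listed pathway genes past the threshold, the 3 genes most like each of the 10, and check and marker genes. Genes and lists were chosen with earlier results of these data known. Leaving out mice with hepatocyte markers and the hepatocyte score were added after seeing the data. P-values measure the spread between mice.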

Additional observations from a re-analysis of the deposited data

Results flagged for a closer look

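Of 40 combinations of gene and group, 3 held a single mouse far from the rest, and chance alone gives about 1 in 20 groups such a mouse. Irs1 was 100.8 CPM in the corticosterone-treated female F4, against 24.7 to 34.1 CPM in the other treated females. F4 was also the lowest treated female in Pik3r1 (63.2 CPM) and Igfbp4 (73.3 CPM) and the highest in Igf1r (23.1 CPM) and Insr (108 CPM), with Fkbp5 at 207 CPM. Irs2 was 42.2 CPM in the corticosterone-treated male M8, the treated male with the most hepatocyte markers (2847 CPM), and the next highest was 27.9 CPM. Akt1 was 47.3 CPM in the vehicle-treated female F9, which was also the highest vehicle-treated female in Akt2 (436 CPM) and Igfbp5 (1079 CPM).

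The male and female responses differed by the test of the difference itself for 2 pathway genes. For Stc2 the male response was larger by 2.60 on the log2 scale (adjusted p = 0.00607), every treated male being above every vehicle-treated male, and the call held in 14 of 23 fits that left out 1 mouse. For Tbc1d4 it was larger by 1.06 (adjusted p = 0.00952), and the call held in 6 of those 23 fits. With vehicle, Tbc1d4 ran lower in males (32.0 to 56.3 CPM) than in females (46.8 to 86.3 CPM), in overlapping ranges. EdgeR called 0 genes of its list between vehicle-treated sexes. Over all alternatives the adjusted p-value ranged from 1.29e-06 to 0.447 for Stc2 and from 0.000173 to 0.447 for Tbc1d4.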

How the results depend on the processing

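Under 34 alternatives for each gene, Pik3r1 kept its call in females in all, and Pik3r1, Akt2, Irs1 and Igfbp5 kept theirs in males in all but the fit with the fibroblast score, which separates the male groups. Leaving out 1 mouse at a time, the genes of the 10 past the threshold numbered 4 to 6 in males, 1 to 3 in females, 0 to 1 for the difference of the responses and 1 to 2 between treated males and females, and the listed pathway genes numbered 16 to 20, 5 to 13, 0 to 5 and 12 to 16 in the same order, and 2 to 3 between vehicle-treated mice. Across those fits the log2FC changed sign for Igf1r in females (-0.13 to 0.090), Irs2 in males (-0.035 to 0.21) and Igfbp5 between vehicle-treated sexes (-0.056 to 0.46). DESeq2 gave 3 of the 10 genes between treated sexes and 10 pathway genes for the difference, where it called 29.7% and 6.98% of all genes. Limma-voom gave 4 of the 10 in females, 1 for the difference and 5 pathway genes for the difference. It called 18.8% of all genes in females and 5.31% for the difference. It turned Irs2 in males to -0.0074 and Igf1r in females to -0.064. The filterByExpr filter and no filter each left 1 pathway gene for the difference, where 0.432% and 0.0313% of all genes were called. No filter turned Igf1r in females to -0.012. Each sex alone left 3 pathway genes in females, where 4.3% of all genes were called. Asking for a log2FC beyond 1 left 3 of the 10 genes in males. Without F10 and M8, pathway calls were 6 in females and 0 for the difference, where 8.94% and 0.0307% of all genes were called. Irs2 in males was -0.028 there. Without the 5 mice with hepatocyte markers, calls of the 10 genes were 1 in females and 0 between treated sexes. Pathway calls were 2 in females, 1 for the difference and 3 between treated sexes. Of all genes tested, 3.53% were called in females, 0.023% for the difference and 2.22% between treated sexes. Irs2 in males (-0.026), Igf1 in females (-0.075) and Igfbp5 between vehicle-treated sexes (-0.0030) changed sign. With the adipocyte score, calls of the 10 genes were 1 in females and 0 between treated sexes. Pathway calls were 3 in females, 0 for the difference and 9 between treated sexes. Of all genes tested, that fit called 5.79% in females, 0.00766% for the difference and 11.9% between treated sexes. Igf1 (-0.26) and Igf1r (-0.045) in females changed sign. With the fibroblast score, 0 of the 10 genes and 0 pathway genes were called in males and between treated sexes. For the difference 0 pathway genes were called. Over all genes tested, that fit called 0.276% in males, 0.092% between treated sexes and 0 for the difference. It turned Igf1 in males to 1.49, Igfbp6 to 0.16, Igfbp7 to 0.42 and Akt1s1 to -0.20, the differences of Igf1, Akt2 and Igfbp4 to 0.39, -0.074 and 0.29, and treated males against females for Igf1 and Akt2 to 0.49 and -0.15. The cause was not tested in any of these.

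The deviations of same-numbered males and females from their group means correlated above 0.1 in 7 of 11 pairs, 5 of 6 with vehicle (0.0846 to 0.477) and 2 of 5 with corticosterone (-0.377 to 0.242). Of 12 vehicle-treated mice 6, and of 11 treated mice 2, correlated best with their own number in the other sex. This is a hint of pairing among vehicle-treated mice, but the labels give the numbers no meaning and not every pair was above 0.1, so the numbers were not taken to pair the mice. Within a sex no number occurs in both treatments. A replicate block on the number left 0 of the 10 genes called between treated sexes (Igf1 -1.67, adjusted p = 0.0284), 0 pathway genes for the difference (Stc2 2.79, adjusted p = 0.0102, and Tbc1d4 1.08, adjusted p = 0.0148) and 1 between vehicle-treated sexes. Each of the 10 genes had at least 89 counts in every mouse. The part of counting error in the spread of single genes was not tested. The spread was smallest for Igf1 in vehicle-treated males, where the SD was 3.97% of the mean at 421 to 486 counts.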

Other observations

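Ratios within a mouse need no scaling between libraries. They were chosen after the values of the genes were seen and are given as descriptions per kilobase of exon, with no test. Irs1 to Irs2 was 1.06 to 2.41 in vehicle-treated males and 0.366 to 0.783 in treated males, so Irs1 was the more abundant adaptor in every vehicle-treated male and Irs2 in every treated male. In females it was 1.26 to 2.62 with vehicle, and with corticosterone 4 mice lay at or below 1.01 while F4 had 2.82. Pik3r1 to the sum of the catalytic subunit genes Pik3ca, Pik3cb and Pik3cd was 0.203 to 0.315 in vehicle-treated males and 1.98 to 4.64 in treated males. In females it was 0.218 to 0.341 with vehicle and 0.590 (F4) to 2.55 (F2) with corticosterone. Akt2 to Akt1 was 2.69 to 3.52 in vehicle-treated males and 4.29 to 6.52 in treated males, while in females F9 at 5.30 put the vehicle range (2.14 to 5.30) over that of the treated mice (3.67 to 5.34). Igfbp5 to Igfbp4 was 2.42 to 19.9 in vehicle-treated males and 0.438 to 2.06 in treated males, and 3.06 to 14.7 and 0.655 to 2.04 in females, with no overlap in either sex. Insr to Igf1r overlapped between treated and vehicle-treated mice in both sexes, at 6.06 to 8.73 and 6.75 to 8.98 in males and 4.98 to 6.28 and 5.73 to 8.29 in females.

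Stc1, the relative of Stc2, did not pass the filter. It was 23.5 CPM in F10, 4.37 in F2 and 3.52 in F6, and at most 1.33 CPM in the other 20 mice.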
